A study of Mus musculus with 8 samples.

Results

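The 9 genes described here make up the core of MHC class I antigen presentation: the heavy chains H2-D1 and H2-K1, their shared light chain B2m, the peptide transporter subunits Tap1 and Tap2, the loading factor Tapbp, the immunoproteasome subunits Psmb8 and Psmb9, and the transactivator Nlrc5. They were chosen by their role in the pathway and matched by symbol, by a rule that uses no measured value, though with earlier results of these data known. All 9 were found among the 24942 genes of the deposited table. The study sequenced RNA of retinal ganglion cells, the neurons whose axons form the optic nerve, which had been purified by immunopanning from mice at postnatal day 8 and lysed at once on the antibody-coated plate. The NPC1-deficient mice gave 4 libraries and their wildtype littermates another 4, with 33030175 to 44050118 reads each. The question is what the absence of NPC1, a lysosomal exporter of cholesterol, does to gene expression in this neuron. No treatment is given for either group, and both carry the strain label balb/cnctr-npc1m1n/j. The Npc1 allele of that strain is a germline mutation, so every cell type of the deficient mice lacks the protein, not ganglion cells alone. Nothing in the labels tells separate animals from pools, so the spread behind each p-value is that between libraries, whatever its source.

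Class I molecules show short peptides at the cell surface. Proteasomes cut cytosolic proteins into peptides, the Tap transporter carries these into the endoplasmic reticulum, and there they are loaded onto a heavy chain paired with B2m. The pathway is best known for display to T cells and is switched on by interferon, but neurons make class I molecules as well, and in the developing visual system H2-D1 and H2-K1 are known for their part in pruning the synapses of ganglion cell axons.

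One further label field goes against the titles and descriptions used here for grouping: by it, libraries numbered 1 and 2 would be wildtype and those numbered 3 and 4 homozygous, whatever their title. Npc1 itself was 707 to 857 normalized reads in the libraries titled wildtype and 66.1 to 140 in those titled NPC1-deficient, so its level followed the titles. Wildtype 1 stood apart from the other libraries by its sum of 4 Y-linked genes, 45.6 normalized reads against 1241 to 3788. Sex-linked RNA varied beyond that library: wildtype 2 to 4 had Y-linked sums of 3093, 1241 and 1508, and the NPC1-deficient libraries 2597 to 3788. Xist, the RNA of the inactive X chromosome, was 595, 18.2, 238 and 164 in wildtype 1 to 4. In NPC1-deficient 1 to 4 it was 68.1, 3.002, 1.09 and 0. Sex-linked RNA was thus not balanced between the groups, and its part in the results was not tested beyond leaving out single libraries. Xist of 68.1 or more stood beside Y-linked sums of 1241 in wildtype 3, 1508 in wildtype 4 and 2597 in NPC1-deficient 1. Whether these libraries are pools with cells of both sexes was not tested. Ganglion cell markers were abundant throughout, with all 17 listed genes past the filter on low values and a summed level of 560712 to 622756. Markers of other cells were present at lower levels, and the summed level of 20 microglial markers was 4192 to 17205 in wildtype, against 2981 to 4884 in NPC1-deficient libraries. In RNA from a whole purified preparation, fewer cells of a type and less RNA per cell cannot be told apart.

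The upstream sequences of the 3 genes that form the class I molecule are shown first, because H2-D1 and H2-K1 differed from B2m in how they varied between libraries. Each line holds the 250 bases before the RefSeq start of the gene (GRCm38.p6, gene strand), with matches to 5 short motifs in capitals. The motifs, sought on both strands with their letters chosen from textbook knowledge, with the sequences in view and shortened to at most 9 letters, were GGGATTCCC (core of a kappa B element), GAANNGAAA and GAAANNGAA (cores of interferon response elements), TGACG (core of the X2 box) and ATTGG (core of the Y box). The interferon motifs can overlap each other.
H2-D1: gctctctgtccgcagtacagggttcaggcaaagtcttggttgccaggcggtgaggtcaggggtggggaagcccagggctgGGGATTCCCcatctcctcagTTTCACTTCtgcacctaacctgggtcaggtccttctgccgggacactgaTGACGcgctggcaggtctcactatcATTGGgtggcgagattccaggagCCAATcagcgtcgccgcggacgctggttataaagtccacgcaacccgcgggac
H2-K1: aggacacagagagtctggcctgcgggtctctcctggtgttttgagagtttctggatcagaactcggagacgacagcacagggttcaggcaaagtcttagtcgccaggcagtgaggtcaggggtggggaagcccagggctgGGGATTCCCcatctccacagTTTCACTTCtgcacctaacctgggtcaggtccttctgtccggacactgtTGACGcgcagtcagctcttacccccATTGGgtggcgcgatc
B2m: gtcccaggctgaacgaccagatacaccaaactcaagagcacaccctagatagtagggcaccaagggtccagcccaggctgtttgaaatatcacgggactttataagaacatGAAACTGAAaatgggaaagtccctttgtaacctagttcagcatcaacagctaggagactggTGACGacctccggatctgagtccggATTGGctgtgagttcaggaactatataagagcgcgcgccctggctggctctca

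The printed windows are chr17:35262844-35263093 (plus strand) for H2-D1, chr17:34000348-34000597 (minus strand) for H2-K1 and chr2:122147437-122147686 (plus strand) for B2m. The windows of the heavy chains aligned over 190 bases, of which 166 (87.4%) were identical, and 4 matches stood in the same order and spacing in both. There, the kappa B core began 20 bases before the interferon element core, that core 49 bases before TGACG, and TGACG 25 bases before ATTGG. H2-D1 had another Y box match, as CCAAT, which began 53 bases before the start and after its ATTGG at 76. In H2-K1 the ATTGG began 16 bases before the start, so the corresponding stretch lies past the window and was not searched. H2-K1 had 2 RefSeq starts, of which the one nearest the annotated gene start was used. B2m had no match to GGGATTCCC, but other forms of the kappa B element were not searched, so whether its window holds one was not tested. Its TGACG also began 25 bases before ATTGG. That pair at that spacing was found on the gene strand in 18 of 32851 promoters (0.0548%), the printed windows included. The spacing was taken from the printed windows themselves, so this share is a description and not a test. Singly, GGGATTCCC was found in 0.301% of the promoters over the same window, GAANNGAAA in 6.31%, GAAANNGAA in 7.13%, TGACG in 17.8% and ATTGG in 33.8%. A match describes letters, not a bound site.

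Of the 9 members, 7 had an entry in the promoter table. Tap1 and Psmb9 are neighbours on opposite strands of chromosome 17, and their upstream windows share 225 bases. Tap1 and Psmb9 each held 1 match to TGACG and 1 to ATTGG, which are the same sites read from opposite strands. Tapbp held 2 to ATTGG, and Psmb8 held no match to any of the 5 motifs in its window.

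**Figure D1:**
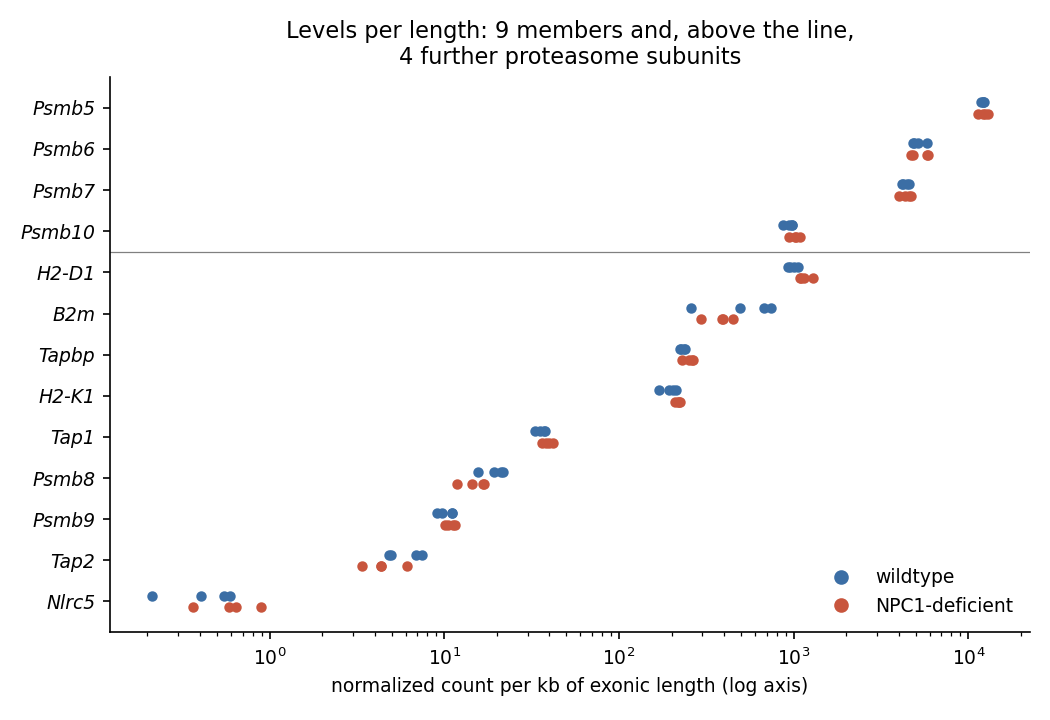
Normalized count per kilobase of exonic length (log axis) for the 9 members and, above the line, 4 further proteasome subunits; each point is a library, with wildtype above and NPC1-deficient below on each row. H2-D1 is the highest member at 930 to 1291 per kb and Nlrc5 the lowest at 0.211 to 0.899 per kb.

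Levels of different genes were compared per kilobase of exonic length, from the union of all annotated exons. On this scale H2-D1 was the most abundant member in both groups, with 983 ± 56.0 (SD, n = 4) normalized reads per kb in wildtype and 1152 ± 95.7 in NPC1-deficient libraries. B2m followed with 543 ± 217 and 382 ± 62.9 (SD, n = 4), Tapbp with 231 ± 6.92 and 252 ± 15.7, and H2-K1 with 194 ± 18.3 and 218 ± 6.51. Over all libraries the ranges of B2m and Tapbp met, at 260 to 745 and 223 to 265, and those of Tapbp and H2-K1 met too, the latter at 169 to 225. Below them stood Tap1 (33.2 to 41.9 per kb), Psmb8 (11.8 to 21.8), Psmb9 (9.03 to 11.5), Tap2 (3.36 to 7.47) and Nlrc5, none of whose ranges met the next. In each library H2-K1 was 17.4% to 21.5% of H2-D1 per kb. Tap2, which pairs with Tap1 in the transporter, was 8.48% to 19.8% of Tap1 per kb.

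No member passed the test for a difference between genotypes. Of the 9 members, 8 passed the filter on low values and were tested in the limma fit over 15386 genes, in which 0 of 8 had an adjusted p of at most 0.05, while 0.104% of all genes tested did (0.039% higher and 0.065% lower). At an unadjusted p under 0.05 there was 1 member, H2-D1, against 6.76% of all genes (2.39% higher and 4.37% lower). The edgeR quasi-likelihood test on the recovered reads also called 0 of the 8 (0.104% of all genes), with Psmb8 and H2-D1 at an unadjusted p under 0.05 (6.93% of all genes). DESeq2 called 0 of them (1.6% of all genes), with H2-D1 alone at an unadjusted p under 0.05 (6.41% of all genes). Of the 8 fold changes 5 were positive and 3 negative, and their median log2 value was 0.10, beside 0.005 for all genes tested. All fold changes here are on the log2(value + 1) scale, NPC1-deficient against wildtype.

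**Figure D2:**
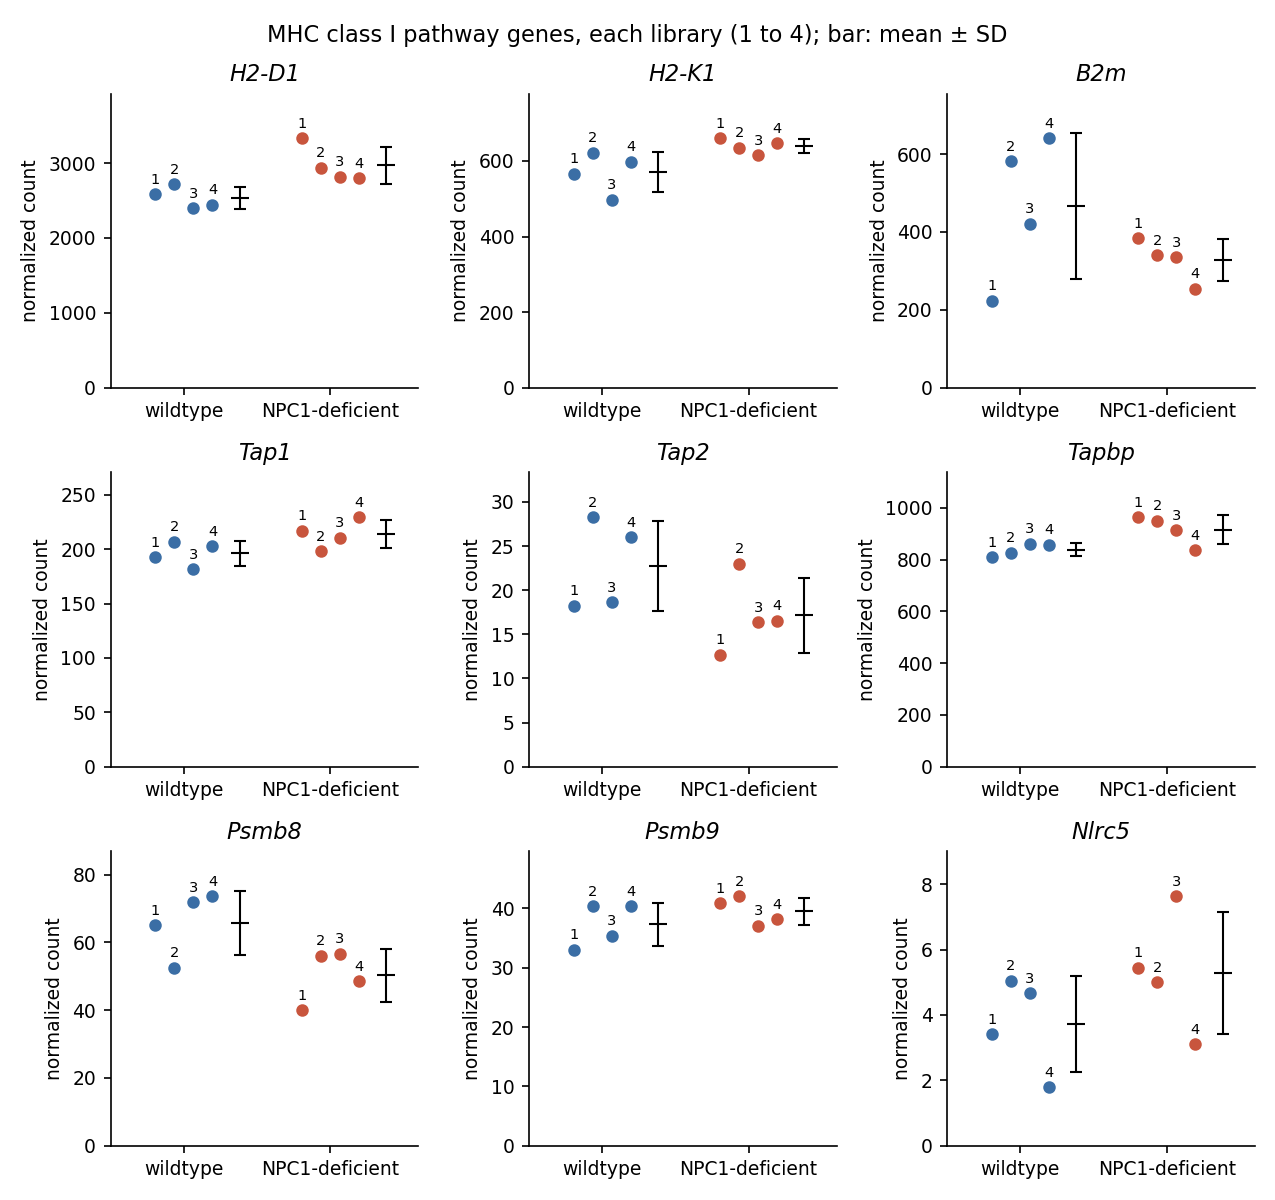
Normalized count (linear axis from 0) of each member in each library, numbered 1 to 4 within wildtype and NPC1-deficient; the black bar is the mean ± SD of the group. H2-D1 alone separates the groups, with 2398 to 2716 in wildtype, against 2798 to 3330 in NPC1-deficient libraries.

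H2-D1 (ENSMUSG00000073411, chromosome 17, 35262730 to 35267499, plus strand, GRCm38) encodes a classical heavy chain that binds the peptide. Its normalized count was 2584, 2716, 2398 and 2442 in wildtype 1 to 4, against 3330, 2939, 2820 and 2798 in NPC1-deficient 1 to 4. Every NPC1-deficient library lay above every wildtype library, by the narrow gap from 2716 to 2798, with NPC1-deficient 1 the highest of all. Among all genes tested 4.27% showed no overlap, 1.86% higher and 2.41% lower, and of the 8 members H2-D1 was the only one in either direction. The mean was 17.2% higher, and the log2 fold change was 0.23 (SE 0.07, 95% interval 0.08 to 0.37, limma adjusted p = 0.258). Libraries 1 and 2 alone gave 0.24 and libraries 3 and 4 alone 0.22, and the difference between these sets was not called (limma interaction adjusted p = 0.940). Without NPC1-deficient 1, which also had the most Npc1 RNA of its group, the log2 fold change was 0.17, the lowest with 1 library left out. The lowest limma adjusted p under any alternative was 0.0743, with the library set as a term. The direction held under all 23 alternatives to the design that kept the titles' groups.

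H2-K1 (ENSMUSG00000061232, chromosome 17, 33996017 to 34000347, minus strand), the other classical heavy chain, had a normalized count of 567, 622, 498 and 598 in wildtype 1 to 4. In NPC1-deficient 1 to 4 it had 660, 635, 615 and 647. The groups met only through wildtype 2, which lay above NPC1-deficient 3. The spread was wider in wildtype, with a coefficient of variation of 9.42% against 2.99% in NPC1-deficient libraries. The log2 fold change was 0.17 (SE 0.08, 95% interval -0.007 to 0.34, limma adjusted p = 0.761), with 0.13 in libraries 1 and 2 alone and 0.21 in libraries 3 and 4 alone. Without wildtype 2 the groups no longer met (2.99% of all genes were then higher without overlap), and without wildtype 3 the log2 fold change was 0.10.

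The ratio of the heavy chains, which ran from 4.08 in wildtype 4 to 5.05 in NPC1-deficient 1, was not called different between the groups. H2-D1 was 4.46 ± 0.311 times H2-K1 in wildtype and 4.65 ± 0.300 times in NPC1-deficient libraries (SD, n = 4), a difference of 0.06 on the log2 scale (exact two-sided permutation p = 0.400, adjusted over 6 ratios p = 0.480). With 70 assignments of the libraries the smallest p such a test can give is 0.0286. Because class I genes are near-identical copies of each other, reads can be split or lost between them, and the way in which the authors counted such reads is not stated in the labels or headers. The reference behind mm10 is C57BL/6J, whose class I alleles differ from those of BALB/c mice, so the level of each heavy chain is uncertain in both groups.

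B2m (ENSMUSG00000060802, chromosome 2, 122147686 to 122153083, plus strand), the light chain without which heavy chains do not reach the surface stably, showed another pattern. Its normalized count was 223, 581, 421 and 641 in wildtype 1 to 4, against 384, 340, 335 and 254 in NPC1-deficient 1 to 4. Wildtype 1 lay below every other library and the other wildtype libraries above every NPC1-deficient one. The wildtype coefficient of variation, 40.0%, was the largest of the 9 members. The log2 fold change was -0.41 (SE 0.27, 95% interval -0.997 to 0.17, limma adjusted p = 0.916). Without wildtype 1 it was -0.73 (limma adjusted p = 0.0696), and the groups then did not overlap, as for 4.19% of all genes that were lower. Within libraries 1 and 2 it was 0.004 (limma adjusted p = 0.999), and within libraries 3 and 4 it was -0.83 and passed (limma adjusted p = 0.0481), where 2.18% of all genes tested did. The difference between the sets was -0.83 and was not called (limma interaction adjusted p = 0.488).

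The level of B2m moved with that of microglial markers from library to library. The sum of the 20 markers was 4192, 11562, 9814 and 17205 in wildtype 1 to 4, against 4884, 4495, 4627 and 2981 in NPC1-deficient 1 to 4. Both quantities were lowest among wildtype libraries in wildtype 1, highest in wildtype 4, and lowest among NPC1-deficient libraries in NPC1-deficient 4. None of the 20 markers was without reads, and 19 were tested, all with a negative fold change and a median of -1.47. None of them was called by limma over all genes. At an unadjusted limma p under 0.05, 18 were lower, against 4.37% of all genes tested, and the same count for other cell types is given below. Csf1r, the receptor microglia need to survive, stood at -1.89 on the log2 scale (limma adjusted p = 0.0790), Fcer1g, an Fc receptor chain, -1.37 (0.155) and C1qc, a complement component, -1.56 (0.159). With the mean log2 level of these markers as a term in the limma model, the log2 fold change of B2m was 0.58 (limma adjusted p = 0.152), the opposite direction. H2-D1 and H2-K1 then stood at 0.26 and 0.21 (limma adjusted p = 0.593 and 0.773). Apart from wildtype 1 the microglial level separates the groups, so the term is hard to tell from genotype, and the part of microglial RNA in the B2m level was not tested further.

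**Figure D3:**
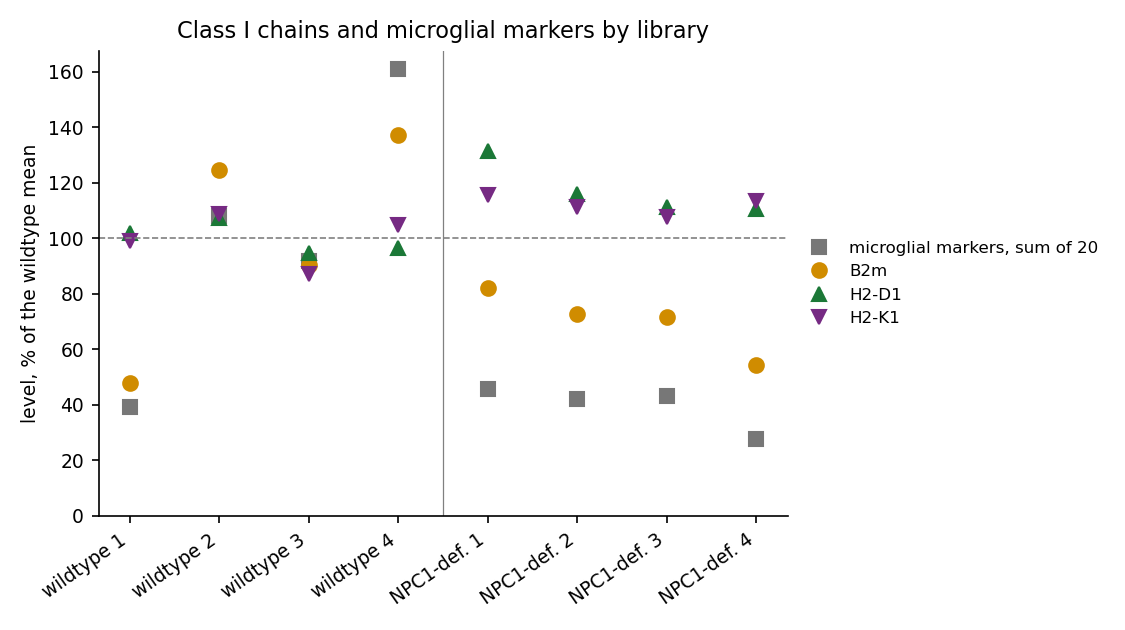
Levels of B2m, H2-D1, H2-K1 and the sum of 20 microglial markers in each library, as a percent of the wildtype mean of each (linear axis from 0; the dashed line is 100%). B2m and the marker sum are both low in wildtype 1 (47.9% and 39.2%) and high in wildtype 4 (137% and 161%), while H2-D1 stays between 94.6% and 131% and H2-K1 between 87.2% and 116%.

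Set against H2-K1 in the same library, B2m was 0.812 ± 0.293 times as high in wildtype and 0.513 ± 0.0832 times in NPC1-deficient libraries (SD, n = 4). The groups overlapped through wildtype 1, at 0.394, and the difference of -0.58 on the log2 scale was not called (exact two-sided permutation p = 0.114, adjusted over 6 ratios p = 0.171). Libraries 1 and 2 alone gave -0.12, libraries 3 and 4 alone -1.04, and all but wildtype 1 gave -0.90.

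The genes nearest to each chain in their pattern differed too. Likeness was measured as the root mean square difference between z-scored log2 values over the 8 libraries, in SD units, among the genes tested outside the 9 members. For B2m the 5 nearest were Ighm (0.22), the immunoglobulin heavy chain, Pon3 (0.24), the nonclassical class I gene H2-T22 (0.26), the myeloid lectin gene Clec7a (0.26) and the leukocyte surface gene Cd52 (0.26). For H2-D1 they were Rasgrp2 (0.18), Tbl1x (0.21), Tmem160 (0.28), Me3 (0.32) and Gm14296 (0.33). For H2-K1 they were Pak1 (0.28), a kinase of the neuronal cytoskeleton, H2-Q2 (0.30), Lhfpl1 (0.30), Misp (0.31) and D230017M19Rik (0.32). These are the closest of 15386 genes over only 8 libraries and are given as a description.

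Tap1 (ENSMUSG00000037321, chromosome 17, 34187553 to 34197225, plus strand), which with Tap2 forms the peptide pump, had normalized counts of 193, 207, 182 and 203 in wildtype and 217, 198, 210 and 229 in NPC1-deficient libraries, in the order 1 to 4. The groups overlapped through NPC1-deficient 2, and the log2 fold change was 0.12 (SE 0.10, 95% interval -0.09 to 0.33, limma adjusted p = 0.955). Tap2 (ENSMUSG00000024339, chromosome 17, 34203527 to 34216321, plus strand) was far lower, with 18.2, 28.3, 18.6 and 26.0 in wildtype and 12.7, 23.01, 16.4 and 16.5 in NPC1-deficient libraries. These rest on 14 to 29 reads a library. Its log2 fold change was -0.39 (SE 0.26, 95% interval -0.96 to 0.17, limma adjusted p = 0.920), an interval that includes 0. Tap1 was 8.86 ± 1.55 times Tap2 in wildtype and 13.1 ± 3.49 times in NPC1-deficient libraries (SD, n = 4), a log2 difference of 0.52 that was not called (exact two-sided permutation p = 0.0857, adjusted p = 0.171). The library kit does not mark strand, and 18.5% of the exonic length of Tap2 overlaps opposite-strand genes. How counting treated strand is not stated.

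Tapbp (ENSMUSG00000024308, chromosome 17, 33915899 to 33929292, plus strand) encodes tapasin, which bridges Tap and the empty class I molecule. Its normalized count was 809, 826, 861 and 858 in wildtype 1 to 4, a coefficient of variation of 2.99%, the smallest of the members in wildtype. In NPC1-deficient 1 to 4 it was 963, 951, 914 and 836, so NPC1-deficient 1 to 3 lay above all wildtype libraries and NPC1-deficient 4 among them. The log2 fold change was 0.13 (SE 0.07, 95% interval -0.02 to 0.27, limma adjusted p = 0.823), with 0.23 within libraries 1 and 2 and 0.02 within libraries 3 and 4. Of its exonic length 24.9% overlaps Gm19412 on the opposite strand and 4.11% Zbtb22 on its own, so part of its reads is uncertain.

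**Figure D4:**
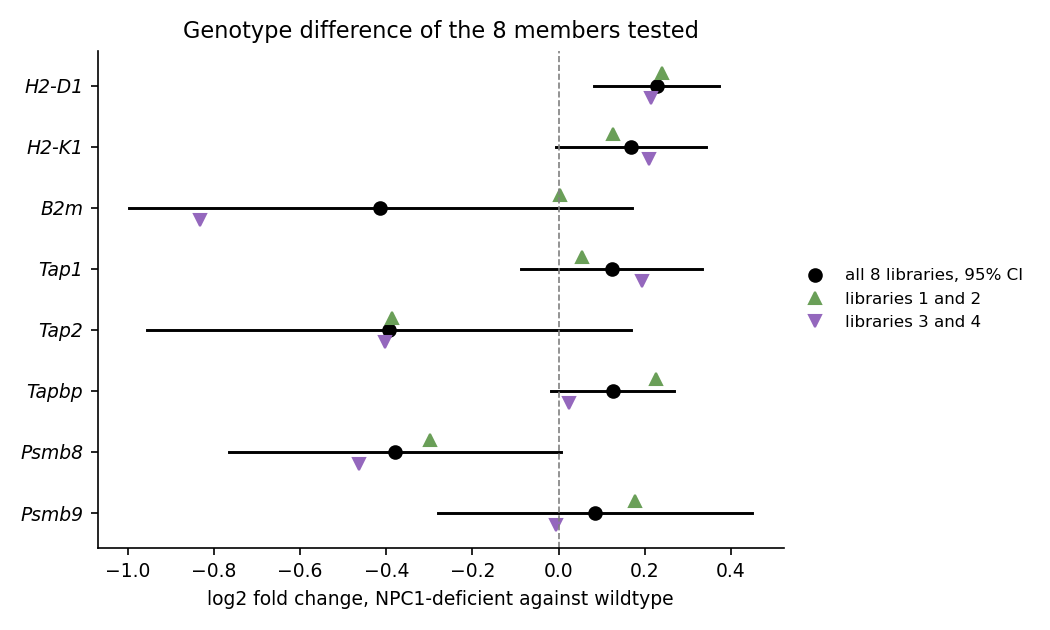
Log2 fold change of the 8 members tested, NPC1-deficient against wildtype, with the limma 95% interval (black) and the values within libraries 1 and 2 (upward triangles) and within libraries 3 and 4 (downward triangles). The interval of H2-D1, 0.08 to 0.37, lies above 0, and the values of B2m within the sets lie furthest apart, at 0.004 and -0.83.

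The immunoproteasome is a form of the proteasome in which interferon-induced catalytic subunits take the place of the standard ones and which favours peptides that fit class I molecules. Psmb8 (ENSMUSG00000024338, chromosome 17, 34197721 to 34201454, plus strand) had normalized counts of 65.0, 52.5, 71.8 and 73.6 in wildtype 1 to 4, against 39.9, 56.0, 56.7 and 48.5 in NPC1-deficient 1 to 4. The groups overlapped through wildtype 2, the percent change of the mean was -23.4%, and the log2 fold change was -0.38 (SE 0.18, 95% interval -0.77 to 0.005, limma adjusted p = 0.754). Its direction was the same under all 23 alternatives, from -0.48 to -0.27, and no alternative called it. Of its exonic length 14.7% overlaps Gm20496 on the opposite strand. Psmb9 (ENSMUSG00000096727, chromosome 17, 34181987 to 34187764, minus strand) had 33.1, 40.4, 35.4 and 40.4 in wildtype and 40.8, 42.0, 37.1 and 38.2 in NPC1-deficient libraries. Its groups overlapped, and the log2 fold change was 0.08 (SE 0.17, 95% interval -0.28 to 0.45, limma adjusted p = 0.995).

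Both subunits were scarce beside the standard subunits whose places they can take. Per kb, Psmb8 was 0.0981% to 0.178% of Psmb5 and Psmb9 was 0.174% to 0.245% of Psmb6 over the 8 libraries. The remaining immunoproteasome subunit, Psmb10, was of another order, with 20.7% to 23.9% of Psmb7 per kb and a normalized count of 1613 ± 89.5 in wildtype and 1736 ± 99.5 in NPC1-deficient libraries (SD, n = 4). The ratio of normalized counts, Psmb8 to Psmb5, was 0.605% ± 0.0914 in wildtype and 0.460% ± 0.0759 in NPC1-deficient libraries (SD, n = 4), a log2 difference of -0.39 (exact two-sided permutation p = 0.0857, adjusted p = 0.171). For Psmb9 to Psmb6 the log2 difference was 0.05 (exact permutation p = 0.829, adjusted p = 0.829) and for Psmb10 to Psmb7 it was 0.09 (exact permutation p = 0.114, adjusted p = 0.171). A single ratio at the smallest possible p would have an adjusted p of 0.171 when the other ratios do not share it, so the absence of calls among the 6 ratios says little.

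Nlrc5 (ENSMUSG00000074151, chromosome 8, 94434356 to 94527272, plus strand), the transactivator recruited by the factors that bind the conserved promoter boxes of class I genes, was close to the limit of detection. It had 3, 5, 5 and 2 reads in wildtype 1 to 4, against 6, 5, 7 and 3 in NPC1-deficient 1 to 4. A count of 0 would allow up to 3 reads (2.69 to 3.42 normalized reads, for counting error only), so the libraries stood near that limit and no fold change is given. It did not pass the filter on low values. Without a filter limma did not call it either (adjusted p = 0.924).

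Other genes of the pathway were read from lists of the class I family, its helpers and its controls, and none of their members passed over all genes tested in either direction. Of 31 further class I or class I-like chains listed, 22 were found by symbol in the deposited genes and 14 were tested, 8 above 0 and 6 below it on the log2 scale (median 0.06). H2-Q4, a nonclassical chain, had normalized counts of 92.3, 95.9, 90.4 and 75.4 in wildtype 1 to 4, against 55.4, 39.0, 53.4 and 63.0 in NPC1-deficient 1 to 4. Its groups did not overlap, and it stood at -0.75 in log2 units (SE of 0.17, limma adjusted p = 0.113), the sign opposite to that of H2-D1. Fcgrt, the neonatal Fc receptor, stood at -1.90 on the log2 scale (limma adjusted p = 0.109), just without overlap. Wildtype 1 had 25.1 normalized reads and the other wildtype libraries 85.8 to 99.6. B2m and the microglial marker sum had the same order within wildtype, but there wildtype 1 did not lie above all NPC1-deficient libraries. Hfe, a class I-like regulator of iron uptake, stood at -1.04 (limma adjusted p = 0.353) and H2-Q2 at 0.38 (limma adjusted p = 0.739), the latter without overlap of the groups. Of the 14 chains tested 2 were higher and 2 lower without overlap, beside 1.86% and 2.41% of all genes tested.

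Of 20 genes tested for peptide supply and loading 12 lay above 0 and 8 below it on the log2 scale, around a median of 0.009. Psme4, a proteasome activator, stood at -0.20 (SE 0.06, limma adjusted p = 0.233), with 1740 to 1956 normalized reads in wildtype, against 1508 to 1641 in NPC1-deficient libraries. Sec61a1, the channel of the endoplasmic reticulum, stood at 0.11 (limma adjusted p = 0.828), Psmb10 at 0.11 (0.891) and the aminopeptidase Npepps at -0.06 (0.962). The 14 subunits of the standard proteasome core had a median of 0.009, and the smallest p values in this list belonged to Psma2 (0.03), Psmb2 (0.02), Psma5 (-0.03) and Psmb6 (0.04).

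Of 23 genes tested for class I transcription factors and upstream signalling 9 were positive and 14 negative, with a median of -0.007. Irf8, an interferon regulatory factor of myeloid cells, stood at -1.19 (SE 0.28, limma adjusted p = 0.120), with 51.3, 99.9, 107 and 147 normalized reads in wildtype 1 to 4, against 33.8 to 49.0 in NPC1-deficient libraries. Stat2 and Irf9, which act together downstream of the type I interferon receptor, stood at 0.26 (limma adjusted p = 0.538, groups without overlap) and 0.25 (limma adjusted p = 0.751). Ifngr2, a subunit of the separate receptor for interferon gamma, stood at 0.08 (limma adjusted p = 0.899). Of the 23 genes tested 1 was higher (Stat2) and 1 lower (Irf8) without overlap, beside 1.86% and 2.41% of all genes tested. Ifnb1, an interferon gene, had reads in 1 library only, at 2.02 normalized reads in wildtype 2.

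Receptors for class I were for the most part at or near the limit of detection. Of 20 such genes listed, 13 were found by symbol and 2 were tested, both of them with other main functions, and the other 11 found had 1 to 25 reads over all libraries together. Pirb, the immunoglobulin-like receptor known to bind class I molecules on neurons, had 22 reads, and Cd247, a T cell receptor chain also described in ganglion cells, had 8. Tfrc, the transferrin receptor that Hfe binds, stood at 0.36 (SE 0.08, limma adjusted p = 0.102), with 1174 to 1526 normalized reads in wildtype, against 1656 to 1790 in NPC1-deficient libraries. Insr, the insulin receptor, stood at 0.15 (limma adjusted p = 0.669).

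Class II genes, which serve professional antigen-presenting cells, did not show a shared direction. Of 7 tested 3 were positive and 4 negative, with a median of -0.17 and none called. The smallest p was that of Ctss, a protease also on the microglial list, at -1.71 (limma adjusted p = 0.176), followed by H2-DMb2 at -0.51 (limma adjusted p = 0.879), H2-Ab1 at -0.17 (0.924) and H2-Eb1 at 0.50 (0.928).

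Markers of other cells that express class I genes were read beside these values. Of 12 endothelial markers listed, 10 were found by symbol and 7 were tested, all with a negative fold change and a median of -0.11 (0.04 in libraries 1 and 2 alone), and their summed level was 1072 to 1247 in wildtype, against 941 to 1095 in NPC1-deficient libraries. Of the T and NK cell markers 1 of 10 in the table was tested, Lck at 0.10 (limma adjusted p = 0.928), and the others were below the filter. The 7 pericyte and fibroblast markers tested had a median of 0.14, and their summed level was 398 to 489 in wildtype, against 313 to 593 in NPC1-deficient libraries. Most of the difference in the endothelial sum lay in Kdr, a growth factor receptor, at 304 ± 111 in wildtype and 163 ± 36.9 in NPC1-deficient libraries (SD, n = 4; -0.86 in log2 units, limma adjusted p = 0.233). Emcn and Esam, with the next smallest p in this list, stood at -0.26 and -0.11 (limma adjusted p = 0.983 and 0.995). With the mean log2 level of endothelial markers as a term the log2 fold change of H2-D1 was 0.19 and that of H2-K1 0.05 (limma adjusted p = 0.999 for each). Among markers of other retinal neurons and glia the median was 0.06 for 5 astrocyte genes, -0.64 for 4 cone genes, -1.05 for 15 rod genes, -1.45 for 9 amacrine genes, -0.42 for 10 bipolar genes and -0.44 for 9 Müller glia genes, of which Apoe alone was called (-1.31, limma adjusted p = 0.0482). At an unadjusted limma p under 0.05, 13 of the 15 rod genes and 5 of the 9 amacrine genes were lower, against 4.37% of all genes tested. So were 4 of the 9 Müller glia, 3 of the 10 bipolar and 1 of the 4 cone genes, but no astrocyte gene. Lower marker levels were thus not particular to microglia. The ganglion cell list had a median of 0.06 with 14 of 17 genes positive, and none was called. The part of these cells in the heavy chain levels was not tested further.

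**Figure D5:**
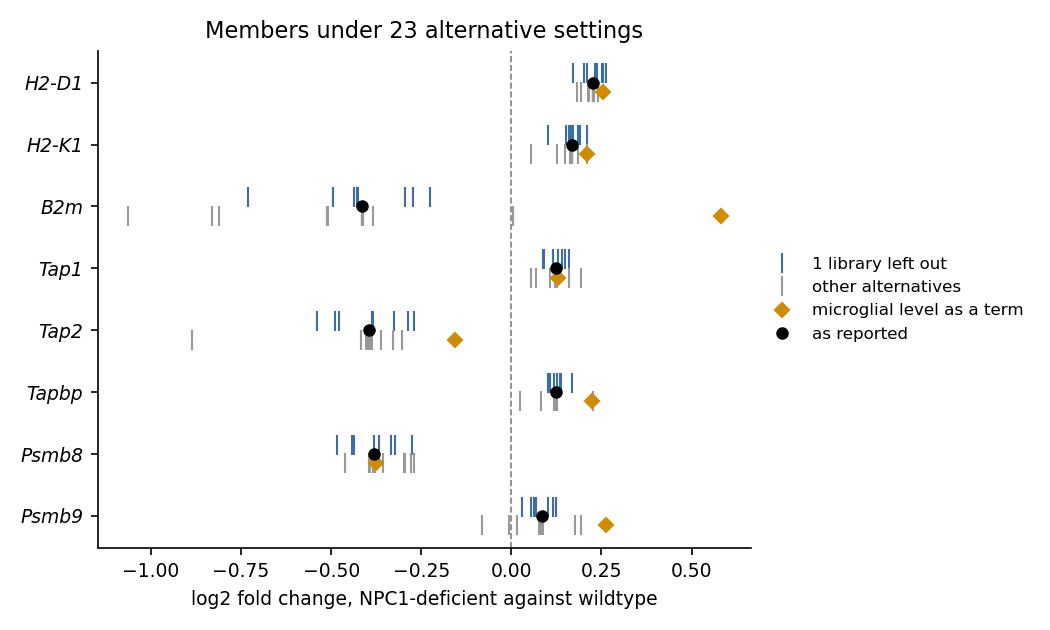
Log2 fold change of the 8 members tested under the alternatives that keep the groups of the titles: with 1 library left out (blue ticks), with the microglial level as a term (diamonds) and under the other alternatives (grey ticks), beside the value as reported (black points). There are 23 alternatives for each gene but 22 for Tap2 and Psmb9, which a minimum of 50 removes; H2-D1 stays between 0.17 and 0.26, while B2m runs from -1.07 to 0.58.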

How the data were processed

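Each value of the deposited table is a normalized signal: a gene's reads over a size factor of its library, as the deposited values themselves show. CASAVA 1.8.2, HTSeq 0.5.4p3, DESeq2 1.0.19 and mm10 are named, with no role, in the submitters' processing notes. No source used here gives the aligner. The library kit, TruSeq v2 per the labels' protocols, does not mark strand. All 199536 values were whole multiples of their library's step within 1e-06, so whole reads were recovered.

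The limma fit (limma 3.58.1, R 4.3.3) took log2(value + 1) of the 15386 genes whose mean value reached 10 (9556 removed), with a trend, no covariate and Benjamini-Hochberg adjustment at 0.05. Log2 ratios were compared by exact permutation (scipy 1.17.1). Recovered reads were also tested with edgeR 4.0.16 (quasi-likelihood) and DESeq2 1.42.0. The fit was tested on simulated data, with 50 changed genes at each size of change. It recovered 44% of them at a log2 change of 0.35, 48% at 0.5, 78% at 1 and 98% at 2. Of its 145 calls 11 were false. The fit of the real data made 16 calls, and with fewer calls the adjustment asks for a smaller p. Differences between library sets were not simulated either. The shares recovered can therefore overstate what the fit would find in the real data. Smaller changes, such as that of H2-D1, were not simulated, so an uncalled member can still differ. Exonic lengths came from GENCODE M21 (GRCm38, the build of mm10; 98.1% of identifiers found), promoters from RefSeq.

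The members and lists were chosen with earlier results of these data known. Named genes were the 9 members, Npc1, the 4 of each pathway list and the 3 of each cell type list with the smallest p, and the 5 genes nearest to each chain. From the cell type lists only those whose values bear on the members are given. Ifnb1, Pirb, Cd247 and Apoe were picked after their values were seen. Alternatives were other pseudocounts, filters, scalings, tools and model terms, each library set alone, and single libraries left out.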

Additional observations from a re-analysis of the deposited data

Results flagged for a closer look

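Among 30 groups of 4 libraries examined (9 members and 6 ratios in each genotype), 2 had 1 library far from the other 3, where chance gives about 1 in 20. The ratio of Psmb9 to Psmb6 was 0.00445 in wildtype 2 and 0.00362 to 0.00371 in the other wildtype libraries. The ratio of Psmb10 to Psmb7 was 0.108 in NPC1-deficient 4 and 0.118 to 0.119 in the other NPC1-deficient libraries.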

How the results depend on the processing

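Under 23 alternatives that kept the titles' groups (22 for Tap2 and Psmb9), H2-D1, H2-K1, Tap1, Tap2, Tapbp and Psmb8 kept their direction and stayed uncalled. B2m turned to 0.00358 within libraries 1 and 2 and to 0.58 with the microglial level as a term, and was called within libraries 3 and 4 (-0.83). Psmb9 turned to -0.00706 within libraries 3 and 4 and to -0.0805 with the endothelial level as a term. Grouped by the second label field, which is another contrast, the values were 0.11 for B2m, -0.14 for H2-D1, -0.0789 for H2-K1, -0.0292 for Tapbp, 0.23 for Psmb8, -0.0433 for Psmb9 and -0.18 for Npc1. Leaving out single libraries gave -0.73 to -0.23 for B2m, 0.17 to 0.26 for H2-D1, 0.10 to 0.21 for H2-K1, 0.09 to 0.16 for Tap1, -0.54 to -0.27 for Tap2, 0.10 to 0.17 for Tapbp, -0.48 to -0.28 for Psmb8 and 0.03 to 0.12 for Psmb9. The Psmb10 to Psmb7 log2 ratio difference came to 0.16 in the first of these sets and 0.0328 in the other; that of Psmb9 to Psmb6 was -0.04 to 0.13 without single libraries.

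The number of genes called over the whole table was 16. It was 10 with a minimum of 50, 34 with the replicate number as a block, 99 with the library set as a term, 57 within libraries 1 and 2, 335 within libraries 3 and 4, 170 without wildtype 1 and NPC1-deficient 1, 246 with DESeq2, 76 with the microglial and 1 with the endothelial level as a term, and 2 to 144 without single libraries. The cause of these differences was not tested. With the replicate block no member was called. The numbers do not pair the libraries: deviations of same-numbered libraries correlated at -0.07 to -0.02, and none of the 4 wildtype libraries correlated best with its own number. Among the members, read counts were lowest for Nlrc5, then Tap2 and Psmb9.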
